A study of Mus musculus with 34 samples.

Results

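The cortex of mice with 1 targeted Hdac4 allele (Hdac4HET) was compared with the cortex of their wild type (WT) counterparts at 15 weeks of age. The arrays were chosen by the genotype in their titles, and 16 of the 34 arrays of the series belonged to the comparison, 8 Hdac4HET and 8 WT, with RNA of 1 mouse on each array. The other 18 arrays came from Dble::R6/2 mice (n = 9), which carried both the targeted Hdac4 allele and the R6/2 transgene, a mutant HTT exon 1 fragment, and from R6/2 mice (n = 9) with the transgene alone. They share no array with the Hdac4HET and WT mice and are used only to set the same allele beside itself on another background. All mice were of mixed CBA and C57Bl/6 strain, of both sexes by label and of the same age. By the account of the study, the null allele was made in 129S mice, so carriers also kept 129S DNA around Hdac4, and heterozygotes were used because mice without any Hdac4 die soon after birth. The question was what a reduced dose of Hdac4 does to the transcript profile of the cortex.

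HDAC4 is a class IIa histone deacetylase. These proteins have little deacetylase activity of their own, move between cytoplasm and nucleus according to their phosphorylation and 14-3-3 binding, and repress genes in the nucleus by binding transcription factors such as those of the MEF2 family and by bringing in corepressors with HDAC3. In muscle and bone HDAC4 is known as a brake on differentiation programmes, and in neurons as a mostly cytoplasmic protein that enters the nucleus when activity falls.

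Values are log2 expression levels of 45037 probe sets, each a group of short probes for the 3′ part of a transcript, so that a difference of 1 is a doubling. The median probe set of an array had a level of 5.44 to 5.51. Within a genotype, pairs of arrays had correlations of 0.986 to 0.997. Markers of cortical neurons were high in both genotypes, such as Slc17a7, the vesicular glutamate transporter, at 10.36 ± 0.07 in Hdac4HET and 10.21 ± 0.11 in WT (SD, n = 8 each), and the epidermal keratin Krt14 was low (3.74 ± 0.17 and 3.79 ± 0.20).

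In 4 of the 16 arrays the pituitary hormone transcript Prl exceeded a log2 level of 8: Hdac4HET replicate 1, at 9.22, and WT replicates 2, 6 and 7, at 10.43, 12.09 and 10.55. The remaining 7 Hdac4HET arrays had Prl levels of 3.21 to 4.65, and the remaining 5 WT arrays had levels of 3.51 to 6.04. The growth hormone transcript Gh was high in the same 4 arrays, at 10.33, 9.51, 11.12 and 9.44. Gh also reached 7.76 in Hdac4HET replicate 5 and 7.85 in WT replicate 5, which stayed in the comparison without these 4 arrays. The lowest Gh levels were 4.47 in Hdac4HET replicate 4 and 4.62 in WT replicate 4. The mean level of the 13 measured pituitary markers ranged from 4.52 to 5.63 over Hdac4HET arrays and from 4.47 to 6.35 over WT arrays, and 0 of the 13 passed the test between genotypes (limma, Benjamini-Hochberg adjusted p of 0.05 or less over all probe sets, which is what a call means throughout).

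The sex on the label and the level of the X-inactivation transcript Xist went different ways in 10 of the 16 arrays, 5 of each genotype, while the Y-linked Eif2s3y and Xist disagreed in 0. Xist was high in 2 Hdac4HET arrays (replicates 4 and 7) and in 5 WT arrays (replicates 2, 3, 4, 6 and 7), so the 3 WT arrays high in Prl were also high in Xist. The first principal component, which held 28.9% of the variance of the 16 arrays, ran from -11.4 to 49.1 in Hdac4HET (median 16.8) and from -45.3 to 12.5 in WT (median -14.4). WT replicate 8 had the 12.5 and was the only WT array above 0. How far hormone transcripts, sex or other differences between these arrays entered the calls below was not tested as a cause, and the counts are therefore given with and without the arrays concerned.

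**Figure D1:**
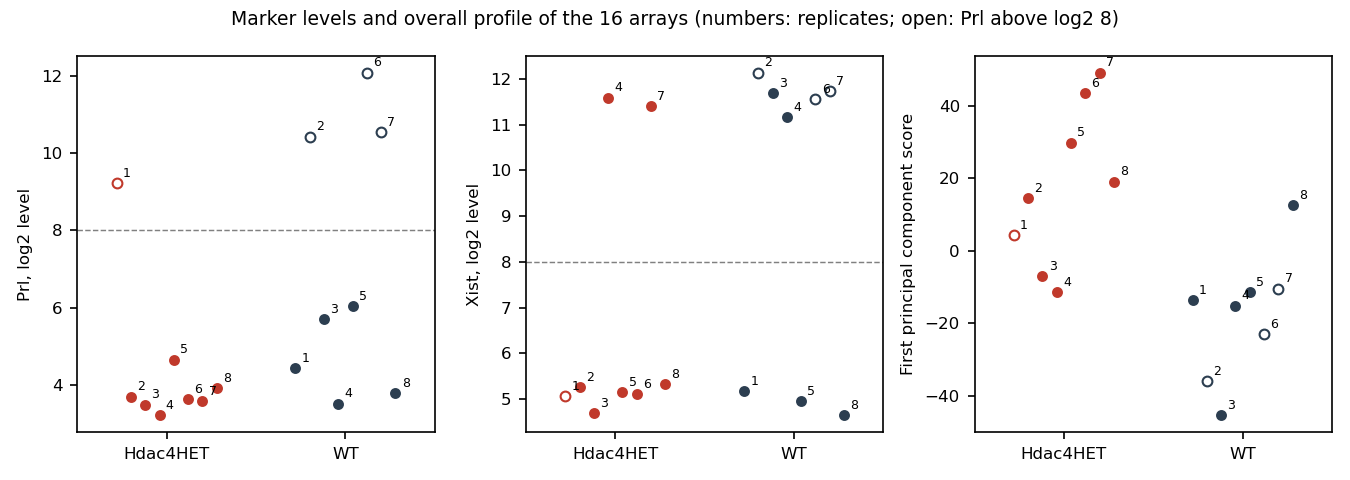
Log2 level of Prl (left) and Xist (middle) and score on the first principal component (right) in the 8 Hdac4HET and the 8 WT arrays, numbered by replicate, with open points for the 4 arrays whose Prl exceeded the dashed line at 8. Hdac4HET replicate 1 and WT replicates 2, 6 and 7 stand above the line, Xist is high in 2 Hdac4HET and 5 WT arrays, and WT replicate 8 has the highest component score among WT arrays.

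Hdac4, the targeted gene, was lower in Hdac4HET cortex on all 3 of its probe sets. The brightest read 7.47, 7.58 and 7.74 in Hdac4HET (lowest, median and highest array, n = 8), against 7.81, 8.08 and 8.20 in WT (n = 8). No Hdac4HET array reached the lowest WT array. The means of 7.58 ± 0.10 and 8.06 ± 0.13 (SD) differed by -0.48 ± 0.06 (SE, limma adjusted p = 0.0036). On this probe set the Hdac4HET signal was 71.5% of the WT signal. The same ratio was 70.3% on the probe set next in brightness and 77.7% on the dimmest one. These are ratios of array signal, and whether they equal ratios of mRNA was not tested. The paper reports a larger decrease of Hdac4 mRNA in Hdac4HET mice by qPCR.

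A further Hdac4 probe set, second in brightness, read 7.16, 7.35 and 7.5 in Hdac4HET and 7.54, 7.88 and 8.13 in WT, again without overlap, and changed by -0.51 ± 0.08 (SE, adjusted p = 0.00743). For both probe sets the 2-sided exact permutation test over 12870 splits of the arrays gave p = 0.000155, the smallest it can give. The dimmest read 4.62, 4.79 and 4.95 in Hdac4HET and 4.81, 5.19 and 5.39 in WT and changed by -0.36 ± 0.08 (SE, adjusted p = 0.0299), with 5 of 8 Hdac4HET arrays below every WT array. It is not known here whether these probes fall inside or outside the deletion, and in whole tissue fewer cells of a type and less RNA per cell cannot be told apart.

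Without the 4 arrays high in Prl the sizes hardly moved, at -0.47, -0.51 and -0.36 from the brightest to the dimmest probe set, but with 7 Hdac4HET and 5 WT arrays none of the 3 passed (adjusted p = 0.143, 0.143 and 0.21). Between Dble::R6/2 and R6/2, the second brightest fell by 0.61 (adjusted p = 3.3e-04). The brightest differed by -0.33 and the dimmest by -0.08 there, and neither passed (adjusted p = 0.691 and 0.945).

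Transcripts of the other 10 Hdac genes were not called. Hdac7, another class IIa member, had the highest difference, 0.12 ± 0.07 (SE, adjusted p = 0.36), and Hdac8, a class I enzyme, the lowest, -0.15 ± 0.12 (adjusted p = 0.523). The 2 class IIa relatives Hdac5 and Hdac9 differed by -0.02 ± 0.10 and 0.09 ± 0.09, and Hdac3, the catalytic partner of class IIa complexes, by 0.04 ± 0.05. Over the family of 11 genes the median change was -0.02, beside -0.0020 over all 18193 genes.

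Of the 23 measured partners of HDAC4, a list of 14-3-3 proteins, kinases, phosphatases and corepressors, 0 were called, with a median of -0.06. Differences ran from -0.21 for the 14-3-3 gene Ywhaz (adjusted p = 0.0611) to 0.28 for the salt-inducible kinase Sik1 (adjusted p = 0.188). Of 22 MEF2 factors and targets 1 was called, the slow myosin heavy chain Myh7, and the median was 0.01. The gene of the mouse huntingtin protein, Htt, had 8.63, 8.76 and 8.91 in Hdac4HET and 8.31, 8.48 and 8.81 in WT on its brightest probe set (0.24 ± 0.07, SE, adjusted p = 0.0694). Its second brightest probe set rose by 0.25 ± 0.06 (adjusted p = 0.0299), and the remaining pair differed by 0.08 and -0.30 without a call.

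Across the array, 1760 probe sets were called, or 3.91% of those tested. Of these, 754 were higher (1.67%) and 1006 lower (2.23%) in Hdac4HET, and 964 changed by over 30%. On the level of genes, each represented by its brightest probe set, 579 of 18193 were called (3.18%), 258 of them higher (1.42%) and 321 lower (1.76%). When the probe sets of each gene were averaged instead, 437 genes were called, 149 higher and 288 lower. The changes of the 1760 probe sets were small, with medians of 0.36 for called rises and -0.43 for called falls. The 2 genotypes did not overlap on 126 probe sets (0.28%), and 116 of these were among the calls.

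When the 4 arrays high in Prl were set aside, the calls numbered 5 (0.0111%), and 6607 had an unadjusted p under 0.05, against 9628 with all arrays. All 1760 probe sets had the same sign there, which their choice on arrays that include these 12 largely fixes. The median change of the called rises was 0.34 and that of the called falls -0.39, while the median standard error grew to 0.108, against 0.0934 with all 16 arrays. Sex as read from Xist, used as a covariate, left 22 calls. Of the 105 named probe sets that passed with all arrays, 5 passed without the arrays high in Prl and 12 with the Xist covariate. For the other named probe sets the call is that of all 16 arrays. Leaving out single arrays gave as few as 183 calls, when Hdac4HET replicate 6 was dropped, and as many as 3994, when WT replicate 8 was.

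The 5 probe sets called without the arrays high in Prl were all higher in Hdac4HET: 2 of Prm1 and 1 each of Pam, Armc9 and Prrt3. Prm1 encodes protamine 1, which packs DNA in the sperm head. Its dimmest probe set read 3.22, 3.45 and 3.84 in Hdac4HET, against 2.29, 2.52 and 2.58 in WT. Every Hdac4HET array lay above every WT array, and the difference of 0.99 ± 0.08 (SE, adjusted p = 1.52e-05) was 0.96 without the 4 arrays (adjusted p = 8.51e-04).

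The next Prm1 probe set read 3.52, 3.85 and 4.55 in Hdac4HET and 2.56, 2.64 and 2.80 in WT, a difference of 1.22 ± 0.11 (SE, adjusted p = 3.79e-05). WT levels of both lay near 2.04, the lowest value on any array, and whether WT cortex had any signal above background there is not known. The brightest Prm1 probe set rose by 0.26 ± 0.06 (adjusted p = 0.0389). Of the other 14 measured spermatid genes, 0 were called, with changes between -0.19 and 0.12. Whether the signal of the Prm1 probe sets came from the Prm1 gene or from the construct of the targeted Hdac4 allele was not tested.

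Pam encodes the enzyme that amidates the C terminus of neuropeptides. It read 8.69, 8.80 and 8.92 in Hdac4HET, against 7.13, 8.12 and 8.41 in WT. The Hdac4HET arrays were tightly grouped and all above the highest WT array, whereas the WT arrays were spread out, with the lowest values in replicates 2 and 6, both high in Prl. The difference of 0.77 ± 0.14 (SE, adjusted p = 0.0187) was 0.54 ± 0.08 without the 4 arrays high in Prl (adjusted p = 0.0479). It did not pass with the Xist covariate (0.72, adjusted p = 0.0769).

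Armc9, which encodes a protein of the base of primary cilia, read 5.58, 5.77 and 6.04 in Hdac4HET and 5.08, 5.23 and 5.44 in WT on 1 of its 7 probe sets, a rise of 0.57 ± 0.07 (SE, adjusted p = 0.00238) without overlap. Its other 6 probe sets were not called and ran from -0.24 to 0.08. Prrt3, a proline-rich transmembrane protein gene, likewise rose on 1 of 3 probe sets, with 6.73, 6.98 and 7.26 in Hdac4HET and 6.30, 6.46 and 6.70 in WT (0.51 ± 0.08, SE, adjusted p = 0.00823). Its other 2 probe sets differed by 0.19 and 0.03.

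**Figure D2:**
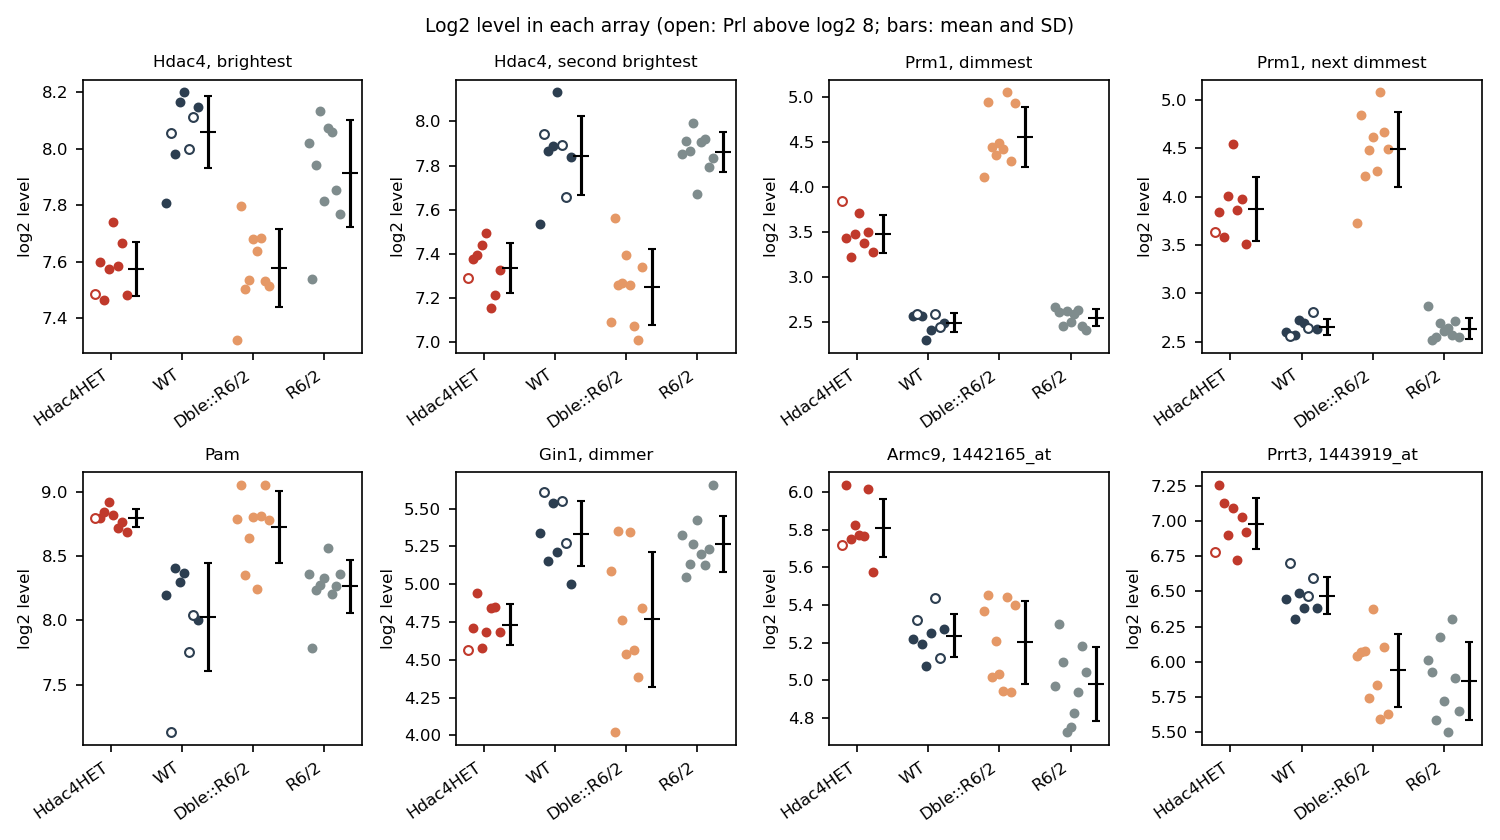
Log2 level of 8 probe sets, 1 point per array, in Hdac4HET, WT, Dble::R6/2 and R6/2 cortex, with bars for the mean and SD and open points for the 4 arrays high in Prl. On average both Hdac4 probe sets are lower and both Prm1 probe sets higher in carriers of the targeted allele, Pam is higher in Hdac4HET than in every WT array, and Prrt3 is set apart in Hdac4HET against WT only.

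Pam, Gin1 and Armc9 lie on chromosome 1, as does Hdac4. Of the 134 measured genes within 10 Mb of Hdac4, each by its brightest probe set, 4 were called (2.99%, beside 3.18% over all genes). These were Hdac4, Pam, Stk25, which encodes a serine-threonine kinase of the Golgi (-0.41, adjusted p = 0.00536), and Efhd1, which encodes a mitochondrial calcium-binding protein (-0.48). The called probe sets of Gin1 and Armc9 were not the brightest of their genes, so this count leaves them out. Gin1 lies between Hdac4 and Pam. Distances come from a mouse gene table of assembly GRCm38.p6. Gin1, an integrase-like gene of retrotransposon origin, had a called probe set that was the dimmer of its pair. It read 4.56, 4.70 and 4.95 in Hdac4HET, against 5.0, 5.30 and 5.61 in WT, a fall of 0.60 ± 0.09 (SE, adjusted p = 0.00743) in which no array overlapped. The brighter Gin1 probe set differed by -0.33 (adjusted p = 0.144). Effects of the allele and of the 129S DNA linked to it cannot be told apart in these samples.

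Prm1, Pam and Gin1 each had a probe set that separated Hdac4HET from WT arrays, with a difference of the same sign between Dble::R6/2 and R6/2. They are 3 of several such genes, picked after their values had been seen. Their promoter windows are shown beside that of the targeted gene, Hdac4. Each runs from 250 bases before to 50 after the annotated start, on the strand of the gene (RefSeq, GRCm38.p6), and capitals mark the GC box GGGCGG and the CCAAT box CCAAT on either strand. The windows lie at chr1:92180292-92180591 (minus strand, Hdac4), chr16:10796774-10797073 (minus strand, Prm1), chr1:98095597-98095896 (minus strand, Pam) and chr1:97769922-97770221 (plus strand, Gin1).
Hdac4: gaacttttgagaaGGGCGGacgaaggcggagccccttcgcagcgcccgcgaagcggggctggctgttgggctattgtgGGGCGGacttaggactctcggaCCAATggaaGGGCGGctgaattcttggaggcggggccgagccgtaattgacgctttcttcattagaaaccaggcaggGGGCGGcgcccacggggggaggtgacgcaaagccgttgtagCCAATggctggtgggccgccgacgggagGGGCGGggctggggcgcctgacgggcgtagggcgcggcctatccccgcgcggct
Prm1: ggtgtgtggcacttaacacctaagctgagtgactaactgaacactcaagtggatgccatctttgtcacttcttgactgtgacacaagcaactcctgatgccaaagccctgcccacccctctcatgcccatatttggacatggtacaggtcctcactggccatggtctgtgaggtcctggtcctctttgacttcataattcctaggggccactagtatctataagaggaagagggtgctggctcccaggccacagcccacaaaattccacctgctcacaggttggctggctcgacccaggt
Pam: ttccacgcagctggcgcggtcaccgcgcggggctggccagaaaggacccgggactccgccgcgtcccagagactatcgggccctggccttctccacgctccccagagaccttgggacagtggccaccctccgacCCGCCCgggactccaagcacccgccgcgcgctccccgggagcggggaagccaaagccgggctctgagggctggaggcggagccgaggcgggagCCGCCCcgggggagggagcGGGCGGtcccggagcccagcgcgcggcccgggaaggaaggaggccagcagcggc
Gin1: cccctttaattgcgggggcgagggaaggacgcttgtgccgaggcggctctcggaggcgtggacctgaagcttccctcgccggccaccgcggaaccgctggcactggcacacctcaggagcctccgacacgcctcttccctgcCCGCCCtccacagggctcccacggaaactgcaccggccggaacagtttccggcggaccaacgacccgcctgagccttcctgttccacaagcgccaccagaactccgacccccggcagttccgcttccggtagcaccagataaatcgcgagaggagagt
GC boxes numbered 5 in Hdac4, 3 in Pam, 1 in Gin1 and 0 in Prm1, and 35.7% of 32851 promoter windows held at least 1. CCAAT boxes numbered 2 in Hdac4 and 0 in the other 3 windows, beside 37.4% of all windows. None of the 4 windows held TATAAA (13.6% of all windows), TGACGTCA, the full cAMP response element (1.79%), or the MEF2 motif (3.19%). GC content was 68% for Hdac4, 52.7% for Prm1, 76.3% for Pam and 66.7% for Gin1, beside a median of 52.7% over all windows. These matches describe letters only.

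Among genes called on their brightest probe set Gm13306 had the largest rise, at 8.93, 9.92 and 10.55 in Hdac4HET and 7.64, 8.56 and 9.91 in WT (1.14 ± 0.29, SE, adjusted p = 0.0396). Both genotypes were widely spread there, and only 4 Hdac4HET arrays exceeded the highest WT array. Myh7, a myosin heavy chain of slow and cardiac muscle, rose by 0.88 ± 0.22. Nptx2, a secreted pentraxin that gathers AMPA receptors at synapses and is induced by activity, read 8.19, 8.35 and 8.48 in Hdac4HET, against 6.99, 7.45 and 8.13 in WT, without overlap (0.83 ± 0.13, SE, adjusted p = 0.0131). Without the arrays high in Prl, the difference of Nptx2 was 0.64 (adjusted p = 0.179).

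Fmod and Mmp14 also rose. Fmod encodes fibromodulin, a collagen-binding proteoglycan. It read 8.16, 8.43 and 8.85 in Hdac4HET, against 7.5, 7.89 and 8.02 in WT on its brightest probe set (0.62 ± 0.11, SE, adjusted p = 0.0166), and 5 of its 6 probe sets were called higher (median of these 0.49). Mmp14, a membrane-bound matrix metalloproteinase, read 6.5, 6.81 and 7.13 in Hdac4HET and 5.96, 6.18 and 6.55 in WT, with 7 of 8 Hdac4HET arrays above every WT array (0.63 ± 0.09, SE, adjusted p = 0.00743). Mmp14 kept its call with the Xist covariate (0.65, adjusted p = 0.0213). Its other 2 probe sets, both dimmer, differed by 0.20 (adjusted p = 0.105) and -7.9e-04 (adjusted p = 0.997).

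Among the other large rises were Casq2, the calcium buffer of the sarcoplasmic reticulum (0.59), Kdm6b, a demethylase of histone H3 (0.57), Midn, which encodes the nuclear protein midnolin (0.64), Adgra1, an adhesion G protein-coupled receptor (0.67), and Dnajc1, an endoplasmic reticulum chaperone (0.57). Ocel1 (0.71), Mamld1 (0.60), Palm2 (0.60) and Gm15527 (0.60) completed the 15, to which Pam also belonged. In Palm2, whose highest array was WT replicate 8 at 9.81, 0 Hdac4HET arrays exceeded the highest WT array. In Gm15527 the genotypes did not overlap.

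The largest falls on the brightest probe set of a gene were those of Ano3, P2ry12 and Abhd1. Ano3, a member of the anoctamin family of channels and scramblases, read 4.34, 5.57 and 6.37 in Hdac4HET, against 5.15, 7.02 and 7.48 in WT (-1.22 ± 0.32, SE, adjusted p = 0.0429). P2ry12, the purinergic receptor of resting microglia, read 6.45, 7.36 and 7.95 in Hdac4HET, against 6.77, 8.63 and 8.81 in WT. The groups overlapped widely in P2ry12, where WT replicate 8 was lowest in its group at 6.77 and the next WT array read 8.28, and the difference was -1.18 ± 0.28 (SE, adjusted p = 0.0344). Abhd1, a hydrolase-fold protein gene, had 4.76, 5.17 and 6.43 in Hdac4HET and 5.95, 6.68 and 7.08 in WT (-1.15 ± 0.25, SE, adjusted p = 0.0301).

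Smaller falls followed. Araf, a RAF kinase (-0.77), Gsdme, a gasdermin (-0.73), Sgk1, a kinase induced by glucocorticoids (-0.65), Zdhhc20, a palmitoyltransferase (-0.69), and Ciart, a repressor of the circadian clock (-0.70), were called. Ciart read 6.75, 7.03 and 7.56 in Hdac4HET, against 7.36, 7.79 and 8.13 in WT, and was also called with the Xist covariate (-0.79, adjusted p = 0.0117). ND5, a subunit of respiratory complex I encoded by the mitochondrial genome, read 12.04, 12.47 and 12.90 in Hdac4HET, against 12.40, 13.18 and 13.47 in WT (-0.72 ± 0.15, SE, adjusted p = 0.0264). Rpf1 (-0.65), Matn2 (-0.62), Zfp963 (-0.62), Cldn10 (-0.61), Coq10b (-0.61) and Hsdl2 (-0.61) completed the 15, of which Zfp963, a zinc finger gene, had no overlap between genotypes.

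**Figure D3:**
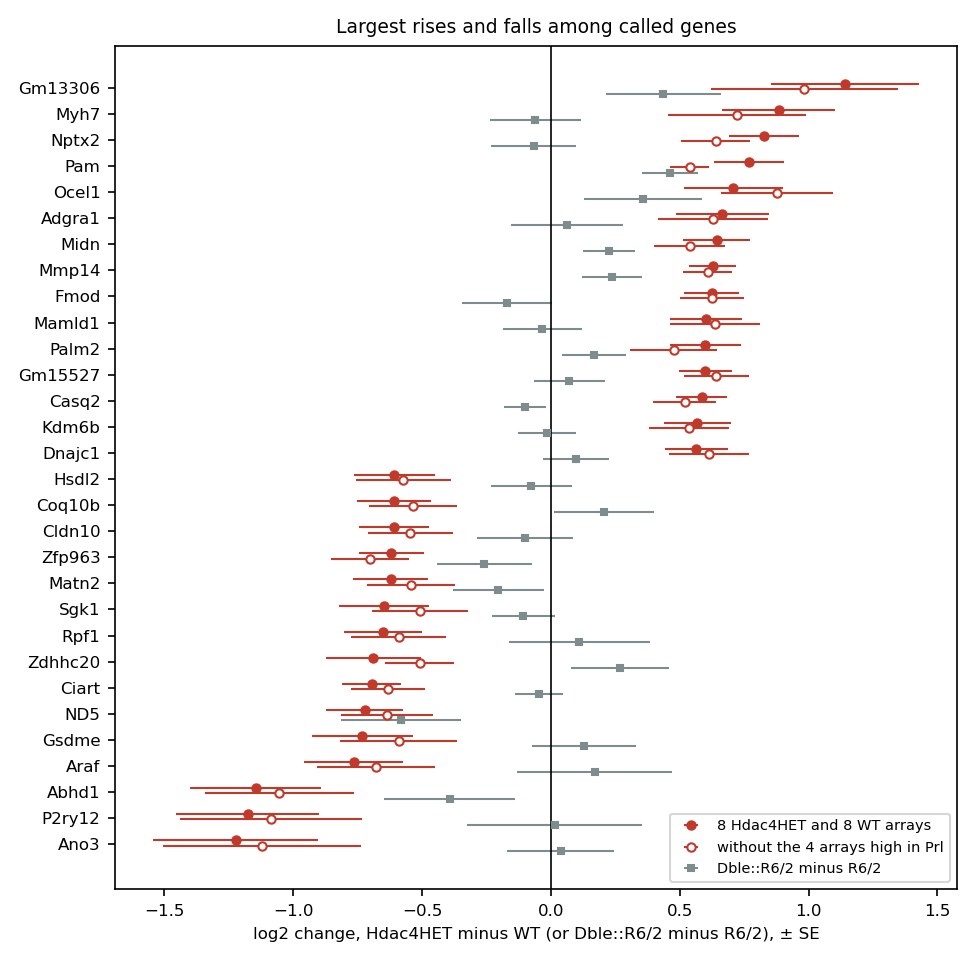
Log2 change ± SE of the 15 largest rises and 15 largest falls among called genes, for Hdac4HET minus WT with all 16 arrays (filled circles) and without the 4 arrays high in Prl (open circles), and for Dble::R6/2 minus R6/2 (squares). Filled and open circles lie close together for most genes, whereas most squares lie near 0, with Pam (0.46) and ND5 (-0.58) farthest from it in the same direction as the circles.

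Several genes moved on 3 or more probe sets in 1 direction. Ube2d3, a ubiquitin-conjugating enzyme, fell on 4 of its 7 probe sets, by 0.37 to 1.26. The 2 brightest Ube2d3 probe sets differed by only -0.08 (adjusted p = 0.421) and -0.03 (adjusted p = 0.862), so the probe sets of this gene did not move alike. The probe set that fell most had 6.53, 7.61 and 8.42 in Hdac4HET, against 7.53, 8.83 and 9.43 in WT.

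Bzw1, a regulator of translation initiation, was lower on 4 of 5 probe sets (median of these -0.43), and on the brightest no Hdac4HET array reached the lowest WT array, with 9.10, 9.47 and 9.65 in Hdac4HET and 9.73, 9.78 and 9.94 in WT. Kcnip4, an accessory subunit of A-type potassium channels, fell on all 3, by 0.29 on the brightest and 1.22 on the dimmest. Fmo2, a flavin monooxygenase, was lower on 3 of 5 probe sets, with a median of these of -0.45, and of -0.26 without the arrays high in Prl. Map4k5, a kinase upstream of JNK signalling, was lower on all 3 (-0.44), and Srd5a3, an enzyme of dolichol synthesis, on 3 of 5 (-0.39). Rpn1, a subunit of the oligosaccharyltransferase, was higher on 3 of 6 probe sets (median of these 0.28), and Slc43a2, a transporter of neutral amino acids, on all 3 (0.34). Ap2a2, a subunit of the endocytic AP-2 adaptor, went both ways, with rises of 0.48 and 0.50 on 2 probe sets and a fall of 0.48 on another, while its 2 brightest differed by 0.16 and 0.09 without a call.

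Counts of list members below stand beside 3.18% of all genes called, 1.42% higher and 1.76% lower. Of 22 genes of GABA neurons and receptors 1 rose and 3 fell (18.2%), with a median of -0.08 beside -0.0020 over all genes. Gabrd, the extrasynaptic delta subunit of the GABA-A receptor, read 9.08, 9.26 and 9.59 in Hdac4HET and 8.79, 8.97 and 9.08 in WT (0.37 ± 0.08, SE, adjusted p = 0.0258). Gabra2, a synaptic alpha subunit (-0.47 ± 0.10, adjusted p = 0.0306), Gphn, the scaffold gephyrin (-0.27 ± 0.07, adjusted p = 0.038), and Calb1, the calcium buffer calbindin (-0.27 ± 0.07, adjusted p = 0.0373), fell. Calb1 was also the only called member of the 19 cortical layer genes.

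Of 31 genes of glutamate receptors and their scaffolds 2 rose and 0 fell (6.45%), with a median of -0.0022. Grm4, a presynaptic metabotropic receptor, read 7.11, 7.25 and 7.69 in Hdac4HET and 6.60, 6.84 and 7.07 in WT, without overlap (0.45 ± 0.09, SE, adjusted p = 0.0203). Cacng2, the AMPA receptor auxiliary protein stargazin, rose by 0.35 ± 0.08. Of 27 calcium handling genes the channel subunit Cacna2d2 (0.42 ± 0.06, adjusted p = 0.00743) and the sodium-calcium exchanger Slc8a3 (0.38) rose and the channel subunit Cacnb2 (-0.53) fell (11.1% called). Cacna2d2 read 8.83, 8.99 and 9.10 in Hdac4HET, above all WT arrays at 8.34, 8.56 and 8.77, and was called with the Xist covariate too (0.40, adjusted p = 0.0385).

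Of 36 potassium channel genes Kcnc4 (0.30) and Kcnab2 (0.23) rose and Kcnip4 fell (8.33% called). Of 30 synaptic vesicle genes 1 rose (3.33%), Cplx1, the fusion clamp complexin 1 (0.19, adjusted p = 0.0498). Of 20 activity-regulated late genes Nptx2 and Pam rose. Of 26 immediate early genes 0 were called, yet 25 had a positive change, with a median of 0.27, beside 49.2% of all genes with a positive change. Egr2, a zinc finger factor, averaged 7.0 ± 1.14 in Hdac4HET and 6.04 ± 0.71 in WT (SD, adjusted p = 0.188), and Egr1, of the same family, 12.49 ± 0.35 in Hdac4HET and 12.07 ± 0.24 in WT (adjusted p = 0.0811). The mean of the list ran from 8.10 to 9.22 over Hdac4HET arrays and from 8.08 to 8.70 over WT arrays, and the ranges of the genotypes overlapped. Bdnf, the neurotrophin that some of these factors regulate, differed by 0.22 on its brighter probe set (limma adjusted p = 0.403). The other Bdnf probe set differed by -0.28 (limma adjusted p = 0.472), and 0 of 7 genes of Bdnf and its receptors were called. By qPCR, in contrast, the paper reports a rise of the Bdnf coding exon transcript in WT cortex upon HDAC4 reduction. It also states that its arrays lacked Bdnf probe sets, whereas the platform annotation used here assigns both of these to Bdnf. Whether their signal follows the qPCR measure was not tested.

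RNA processing genes were called downward only, 4 of 34 (11.8%, beside 1.76% of all genes called lower), with a median of -0.06. The highest value of the list was positive, 0.77 for the nuclear RNA Neat1, which did not pass (adjusted p = 0.372). These were the splicing factors Srsf2, Srsf11 and Tra2b and the SR-related gene Rsrc2. Srsf11 read 9.86, 10.36 and 10.48 in Hdac4HET and 10.55, 10.68 and 10.78 in WT, without overlap (-0.36 ± 0.08, SE, adjusted p = 0.028). Srsf2 fell by 0.45 ± 0.08 (adjusted p = 0.0203), Rsrc2 by 0.24 and Tra2b by 0.21.

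Members of other lists went both ways. Of 20 cholesterol synthesis genes the regulator Insig1 (0.36 ± 0.06, SE, adjusted p = 0.0187) and the squalene synthase Fdft1 (0.20) rose and the sterol dehydrogenase Nsdhl (-0.32) fell. Of 21 clock genes Npas2, a partner of the activator BMAL1, rose (0.34) and Ciart fell. Of 19 glucocorticoid responsive genes Cdkn1a, a cell cycle inhibitor, rose (0.48), and Sgk1 and the mTOR inhibitor Ddit4 (-0.41) fell, with a median of -0.14. Of 8 histone genes measured, the variants H3f3a (0.39) and Macroh2a1 (0.29) rose. Of 45 nuclear genes of oxidative phosphorylation the complex I subunit Ndufa5 alone was called (0.29), and of 29 heat shock genes and chaperones Dnajb4 alone (-0.29). All 20 striatal projection neuron genes, 15 genes of huntingtin and its interactors and 4 reference genes were uncalled, with medians of 0.05, 0.04 and -0.04.

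Of 19 microglia markers 3 fell (15.8%, beside 1.76% of all genes called lower), P2ry12, the lysophospholipid receptor Gpr34 (-0.55 ± 0.13, SE, adjusted p = 0.0322) and Olfml3 (-0.40 ± 0.08, adjusted p = 0.0269), and the uncalled 16 ran from -0.34 to 0.18. The mean level of the list was 7.49 to 7.88 over Hdac4HET arrays and 7.54 to 7.95 over WT arrays. Of 20 astrocyte markers the bicarbonate transporter Slc4a4 fell (-0.35), of 21 endothelial and mural markers the tight junction gene Cldn5 rose (0.54) and Itm2a fell (-0.32), and of 15 meningeal and fibroblast markers Fmod rose. Of 19 oligodendrocyte markers, 13 choroid plexus markers, 14 epidermal markers, 14 hypothalamus and thalamus markers and 6 red blood cell transcripts 0 were called. The choroid plexus marker Ttr averaged 10.22 ± 1.16 in Hdac4HET and 9.57 ± 0.96 in WT (SD, adjusted p = 0.462). The part of any of these cell types in the calls was not tested.

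**Figure D4:**
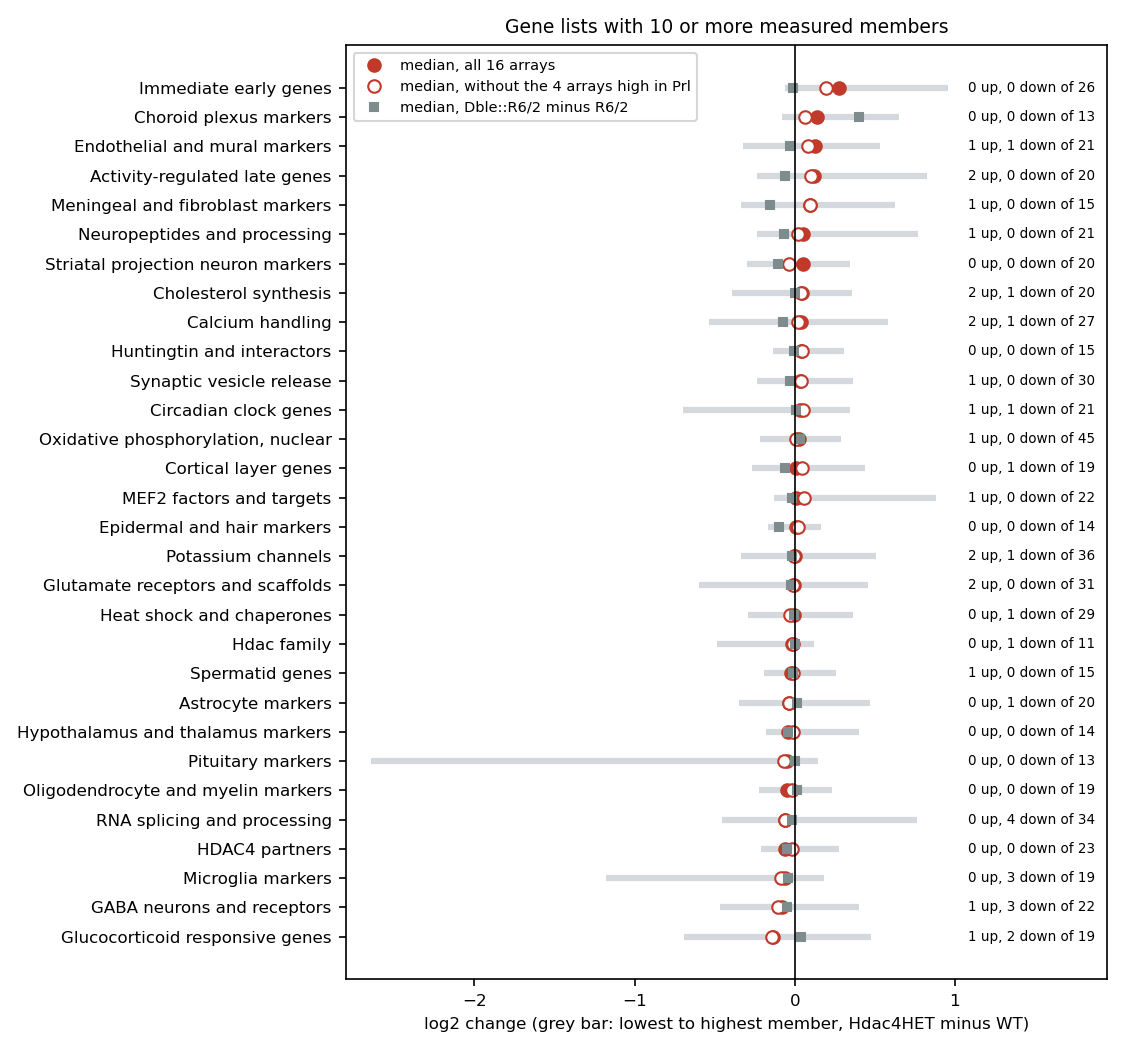
Median log2 change of 30 gene lists with 10 or more measured members, for Hdac4HET minus WT with all 16 arrays (filled circles) and without the 4 arrays high in Prl (open circles), and for Dble::R6/2 minus R6/2 (squares), with grey bars from the lowest to the highest member for Hdac4HET minus WT and the number called up and down at the right. Most medians lie within 0.1 of 0. For Hdac4HET minus WT the immediate early genes have the highest (0.27), and for Dble::R6/2 minus R6/2 the choroid plexus markers (0.40). The RNA processing genes and the GABA genes have the most calls (4 each).

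In total, 42 of 654 list genes were called (6.42%, beside 3.18% of all genes), each gene counted once, against 1 without the arrays high in Prl. The lists were drawn up with earlier results of these data known, so nothing is read from the difference between these shares.

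The calls were also counted over fits that each left out 1 array. In all 16 fits that each left out 1 array, 159 probe sets were called every time, 88 higher and 71 lower, and 21 of these were among the 22 called with the Xist covariate. The 21 included 2 probe sets each of Hdac4, Prm1 and Ap2a2 and 1 each of Armc9, Gin1, Prrt3, Mmp14, Cacna2d2, Ciart and Casq2.

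The other named genes among the 21 fell outside the rule for named genes and were chosen after seeing their values. Nisch, which encodes the imidazoline receptor-binding protein nischarin, averaged 8.33 in Hdac4HET and 7.65 in WT (0.68, adjusted p = 0.00743). Ptprj, a receptor tyrosine phosphatase, averaged 5.12 in Hdac4HET and 4.47 in WT. Stk25 averaged 10.37 in Hdac4HET and 10.78 in WT, and 2 probe sets of the 21 had no gene name. Snap23, a fusion protein of the plasma membrane (-0.51), Rab31, a small GTPase of vesicle traffic (-0.48), and Glt8d2, a glycosyltransferase-like gene (-0.40), were also lower.

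The same allele was then followed in mice that carried the R6/2 transgene as well. Between Dble::R6/2 and R6/2, 3 probe sets were called (0.00666%), the 2 dimmer ones of Prm1 and the second brightest of Hdac4, all in the same direction as between Hdac4HET and WT, and 8 did not overlap between groups (0.0178%). The dimmest Prm1 probe set read 4.10, 4.44 and 5.05 in Dble::R6/2 (n = 9), against 2.40, 2.58 and 2.66 in R6/2 (n = 9), a rise of 2.01 ± 0.11 (SE, adjusted p = 2.18e-09). This was the 1 probe set of 45037 (0.00222%) called for a difference of its change between the 2 backgrounds (limma interaction 1.03, adjusted p = 9.08e-04), larger with the transgene. Its levels without the allele were near the lowest values on both backgrounds. The next Prm1 probe set had a limma interaction of 0.64 (adjusted p = 0.223). The brightest rose by 0.26 and 0.30 on the 2 backgrounds, with an interaction of 0.04 (adjusted p = 0.911). An unadjusted interaction p under 0.05 was found for 4444 probe sets.

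Pam read 8.24, 8.79 and 9.06 in Dble::R6/2, against 7.79, 8.27 and 8.56 in R6/2, with overlap (0.46 ± 0.11, SE, adjusted p = 0.691). The dimmer Gin1 probe set read 4.02, 4.76 and 5.35 in Dble::R6/2, against 5.05, 5.23 and 5.66 in R6/2 (-0.50 ± 0.15, adjusted p = 0.786). The brighter Gin1 probe set went the other way there (0.25, adjusted p = 0.931). Other probe sets called in Hdac4HET with a difference of the same sign in Dble::R6/2 were picked after their values had been seen, and none of them passed in Dble::R6/2. They were those of Smo, the Hedgehog signal transducer (-0.40 in Hdac4HET and -0.44 in Dble::R6/2), Tmem209 (-0.42 and -0.32), Tmem14a (-0.42 and -0.24), the splicing regulator Mbnl2 (-0.23 and -0.16), Ap2a2 (0.48 and 0.20) and Armc9 (0.57 and 0.22).

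Several of the largest changes had no counterpart in size. Nptx2 differed by -0.07 between Dble::R6/2 and R6/2, Myh7 by -0.06, Fmod by -0.17, P2ry12 by 0.01 and Ano3 by 0.04. Prrt3 differed by 0.08. For none of these 6 did the interaction pass. Levels without the targeted allele differed between the backgrounds for some of them. Ano3 averaged 6.79 in WT and 4.66 in R6/2, below the 5.57 of Hdac4HET. Myh7 averaged 6.80 in WT and 5.31 in R6/2, and Fmod 7.82 in WT and 8.93 in R6/2. Whether these levels limited the change was not tested. Of the 754 probe sets called higher in Hdac4HET, 545 (72.3%) were also higher in Dble::R6/2, beside 48.8% of all probe sets, at a median of 0.06. Of the 1006 called lower, 496 (49.3%) were also lower, beside 51.2% of all probe sets. With each gene represented by its brightest probe set, the shares were 65.9% of 258 genes called higher, beside 44.3% of all genes, and 69.5% of 321 genes called lower, beside 55.7% of all genes, at medians of 0.04 and -0.05.

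**Figure D5:**
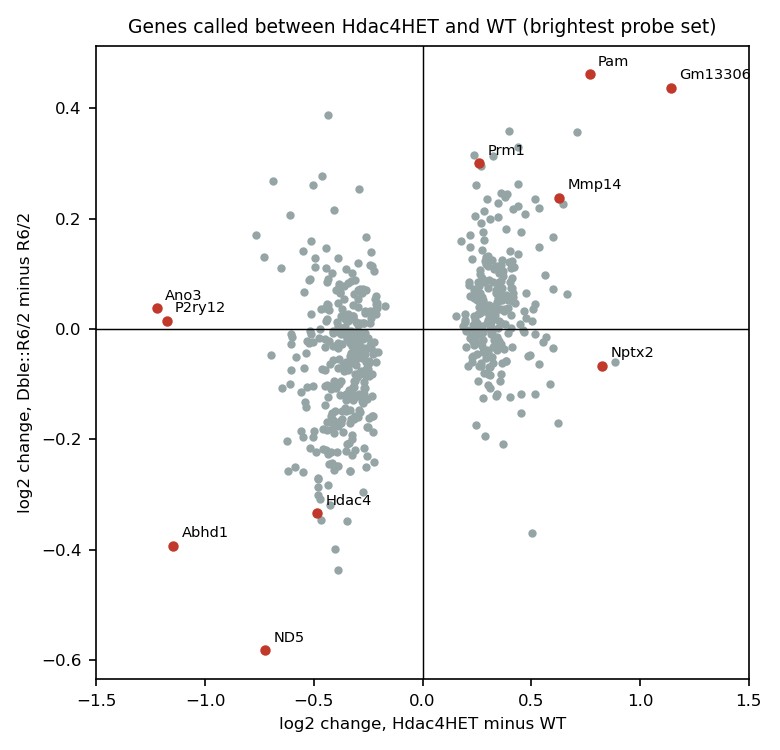
Log2 change between Dble::R6/2 and R6/2 (vertical axis) against that between Hdac4HET and WT (horizontal axis) for the 579 genes called between Hdac4HET and WT, 1 point per gene by its brightest probe set, with named genes in red. Most genes spread over a narrow band around 0 on the vertical axis, Pam lies in the upper right, Hdac4 and ND5 in the lower left, and Nptx2, P2ry12 and Ano3 near 0.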

How the data were processed

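Cortex RNA of single mice was hybridised by the authors to Affymetrix mouse genome arrays, and they removed arrays that failed quality control. Per probe set, the authors deposited 1 log2 value for each array. How they corrected background, normalized and summarised probes was not given in the sources used here. All 34 columns were matched to samples by name. Groups came from the titles, and no detection calls were used.

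Of 45037 probe sets, 34945 had 1 gene symbol, 932 several and 9160 none in the annotation of the platform, with RefSeq (GRCm38.p6) used to bring old symbols up to date. Each of 18193 genes was represented by its brightest probe set, by the mean of the 16 arrays. No gene was named from a probe set with several symbols.

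The test of Hdac4HET against WT used limma 3.58.1 under R 4.3.3, with lmFit and eBayes, no trend, no covariate and no filter, and p-values were adjusted over all probe sets. The methods' pairwise t-test was an alternative. P-values set the difference of means against the spread between mice within a group. Differences in Prl and Xist, which were unevenly divided between the genotypes, were not modelled in the main fit. Dble::R6/2 and R6/2 were fitted alike, and the interaction with all 34 arrays. Alternatives changed normalization, filter, weights, covariates, replicate block, sex and single arrays.

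The members, gene lists and tests were chosen with earlier results of these data known, so lists are described by counts and medians. Named were all probe sets of Hdac4 and Prm1, the 15 largest rises and falls among called genes, probe sets called without the arrays high in Prl, genes with 3 or more called probe sets in 1 direction, at most 4 called genes per list, and all Hdac genes and Htt. Fits split by Xist level or combining the Xist covariate with the removal of arrays high in Prl were added after seeing the data. Figures were drawn with matplotlib 3.10.9.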

Additional observations from a re-analysis of the deposited data

Results flagged for a closer look

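A sample far from the rest of its group of 8 was looked for in every named probe set, in 232 groups, and 19 were found. Chance alone gives about 1 in 20 in independent groups. Most of these probe sets were picked on the same values and some share a gene, so no excess is read from the count. WT replicate 8 held 8 of the 19. It was lowest in its group for P2ry12 (6.77, next array 8.28), ND5 (12.4, next 13.1), Rpf1 (5.91, next 6.44), Bzw1 (6.94, next 7.34), Cacnb2 (6.74, next 7.14) and Slc4a4 (9.43, next 9.64), and highest for Palm2 (9.81, next 9.06) and Ndufa5 (11.3, next 11.1). In all 8 its value lay on the side of the Hdac4HET mean. This array also had the highest first component score among WT arrays, and the count of calls was 3994 without it.

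Other single arrays stood apart in 1 or a few probe sets. In Hdac4HET, replicate 4 was lowest for Adgra1 (8.83, next 9.54) and highest for Calb1 (11.4, next 11.1), replicate 5 highest for a Rpn1 probe set (10.5, next 10.4), replicate 6 lowest for Hdac8 (5.36, next 5.73) and Smo (4.96, next 5.39), and replicate 7 highest for Grm4 (7.69, next 7.31). In WT, replicate 1 was lowest for Hdac8 (5.27, next 5.84), replicate 3 lowest for Macroh2a1 (9.64, next 9.87) and highest for a Srd5a3 probe set (7.10, next 6.86), and replicate 6, high in Prl, lowest for 2 Fmod probe sets (5.75 and 5.56, next 6.07 and 5.89).

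The change of the dimmest Prm1 probe set with the targeted allele differed between backgrounds, with an interaction of 1.03 on the log2 scale (limma, all 34 arrays, adjusted p = 9.08e-04).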

How the results depend on the processing

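The called probe sets kept their sign in each alternative, which their choice on the same arrays largely fixes, but the count of calls moved widely. Against 1760, it was 3305 (1345 higher, 1960 lower) with sex from the labels as a covariate, 877 (418 and 459) with the replicate number as a block, 704 (352 and 352) when the 4 groups were fitted together, 173 (100 and 73) by the methods' t-test, 22 (14 and 8) with sex read from Xist, 9 (7 and 2) in mice labelled female, 1 (1 and 0) in mice labelled male, 5 (5 and 0) without the 4 arrays high in Prl and 4 (3 and 1) with the Prl level as a covariate. Chosen after seeing the data, arrays low in Xist gave 8 (8 and 0), arrays high in Xist 34 (16 and 18), and both corrections together 7 (7 and 0). Leaving out single arrays gave 183 to 3994 calls, 103 to 1759 higher and 77 to 2235 lower. Higher calls made up 42.8% of the 1760 and 63.6% with sex read from Xist. It was 2156 with quantile normalization, 2419 with a minimum mean level of 6, 2144 with array weights and 1891 with trend and robust options. Same-numbered samples correlated at -0.141 to 0.254, so the numbers were not taken as pairs.

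The brightest Hdac4 probe set kept its fall but not its call at -0.47 without the arrays high in Prl, -0.43 and -0.53 in mice labelled male and female, -0.49 and -0.44 in arrays low and high in Xist and -0.47 with both corrections, and Prm1 at 0.99 in mice labelled male. List members called were 1 without the arrays high in Prl. The interaction gave 1 to 2 calls, 2 without R6/2 replicate 2.

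Uncalled Hdac genes near 0 changed sign. With sex from Xist, Hdac1 read 0.025, Hdac5 0.026 and Hdac10 -0.00672. In mice labelled male, Hdac1 read 0.048, Hdac5 0.087 and Hdac6 -0.015, and in mice labelled female Hdac10 -0.015. Without the arrays high in Prl, Hdac5 read 0.079 and Hdac9 -0.013. With the Prl level as a covariate, Hdac1 read 0.029, Hdac5 0.017 and Hdac10 -0.0198. In arrays high in Xist, Hdac1 read 0.12 and Hdac5 0.083, and in arrays low in Xist Hdac10 -0.096, Hdac3 -0.00407 and Hdac8 0.044. With both corrections, Hdac1 read 0.00637 and Hdac5 0.085. Hdac10 read -0.00661 with quantile normalization and -0.018 with array weights. Over single arrays left out, Hdac1 ran from -0.0698 to 0.0276, Hdac10 from -0.039 to 0.031 and Hdac5 from -0.067 to 0.0277. The cause of these moves was not tested. The number of arrays limits the precision, and WT levels of the 2 dimmer Prm1 probe sets lay near the lowest values.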
